A study of Danio rerio with 10 samples.

Results

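The genes described here encode the proteins of the mitochondrial ribosome in the zebrafish embryo. They were chosen by symbol: every gene on the array with a single annotated symbol that begins with mrpl or mrps followed by a digit. This gave 59 of the 8793 genes on the array, 38 named for the large subunit (mrpl) and 21 named for the small subunit (mrps). RefSeq lists 75 zebrafish genes of this form, so 16 are not among the genes described. The 59 genes lie on 22 chromosomes, with at most 6 on 1 chromosome (chromosome 19), and no pair of them are direct neighbours in the RefSeq gene order.

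The mitochondrial ribosome sits in the mitochondrial matrix and translates the few messages of the mitochondrial genome, which encode core subunits of the respiratory chain and of ATP synthase. Its RNA comes from the mitochondrial genome, whereas all of its proteins are encoded in the nucleus, made in the cytosol and imported. Some of these proteins have a counterpart in the bacterial ribosome and others are found in mitochondria only. An egg carries a large store of mitochondria and of maternal transcripts, and embryonic transcription begins widely at the mid-blastula transition, when many maternal transcripts are cleared.

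Whole embryos were profiled on 10 Affymetrix Zebrafish Genome Arrays in 2 experiments. In the first, 3 arrays labelled Sb morphant held embryos at 4.3 h post fertilization (hpf) that had been injected at the 1- to 2-cell stage with a morpholino (Sb MO) against sox19b, a SoxB1 transcription factor gene, and 3 arrays held control embryos of the same age. The sample labels call these controls wildtype, while the series text describes a placebo injection. In the second experiment, 2 arrays held wildtype embryos at 4 hpf, after the mid-blastula transition, and 2 held wildtype embryos at 2.5 hpf, before it. The morpholino is an antisense oligonucleotide of 25 bases aimed at an intron-exon junction, shown here because it defines the treated group.
sox19b morpholino: acatttgactgtggagaggaaaaaa
A splice-blocking morpholino can act only before splicing, and the spliced transcript supplied by the egg is out of its reach. Nothing in the labels names the parents of the egg batches, and the p-values therefore measure only the spread between these samples. RNA of whole embryos cannot tell fewer cells that carry a transcript from less transcript per cell.

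Values are on the log2 scale, where a step of 1 means a 2-fold change. They were compared only within an experiment. Array medians lay between 5.40 and 5.44 in the first experiment and between 6.16 and 6.26 in the second. From this the experiments appear to have been normalized apart, which the labels do not state. Sox19b transcript itself was higher in embryos labelled morphant, at 9.13, 8.80 and 9.18, against 8.48, 7.63 and 8.09 in controls (log2 difference 0.97, adjusted p = 0.00214). A second sox19b probe set gave a log2 difference of 1.33 (limma, adjusted p = 0.000182). Where the sox19b probes lie in the transcript is not known here, and the groups are called by their labels throughout. Control replicate 2 stood slightly apart, correlating with the other controls at 0.990 and 0.992, while they correlated with each other at 0.996. Of the 7 zygotic stage markers, all 7 were lower in embryos labelled morphant and all 7 were higher at 4 hpf than at 2.5 hpf. In the second experiment all 7 were at or below background in at least 1 of the groups. Of the 5 maternal oocyte markers, 4 were higher in embryos labelled morphant and 4 were lower at 4 hpf. Over all genes, 26% were called higher and 21.5% lower in embryos labelled morphant. At 4 hpf 8.86% of all genes were called higher and 11.8% lower. In both comparisons the maternal markers mostly moved in the direction of the median of the genes described below, and the zygotic markers moved the other way. The part of developmental stage in the results below was not tested. Of 7 measured markers of later differentiated tissues, 6 were at or below background in both groups of the first experiment and limma called none there (2 had an unadjusted p below 0.05). In the second, 5 were at or below background at both stages, all 7 differences were positive and 2 were called higher (28.6%, beside 8.86% of all genes). These were actc1b, above background (log2 difference 0.54, limma, adjusted p = 0.00327), and gfap, below background at both stages.

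Embryos labelled morphant were compared with controls to ask which transcripts differ when sox19b is targeted. More mitochondrial ribosomal protein genes were higher than lower. Genes counted as rises or falls are those whose probe set passed an adjusted p of 0.05 over all 15502 probe sets tested with limma. Of the 59 genes, 30 rose, 9 fell and 20 did not pass. That is 50.8% higher and 15.3% lower, where 26% of all genes were called higher and 21.5% were called lower. The median log2 difference of the 59 genes was 0.35, and that of all genes was -0.02. At least 2-fold rises were seen for 11 of the 59 genes, against 10.7% of all genes. An at least 2-fold fall was seen for 1, against 6.66% of all genes.

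Scaling the arrays to their spiked-in control transcripts, in place of the deposited normalization alone, raised the median of all probe sets to 0.21, against -0.04 as deposited. Under that scaling 38 of the 59 genes were called higher and 6 lower, while 39.2% of all genes were called higher and 12.6% lower. As deposited, the median of the 59 genes lay above that of all genes by 0.37. Scaling to control transcripts shifts all probe sets of an array alike, so it could not change this gap. Joint quantile normalization of all 10 arrays could, and gave a gap of 0.22. Against a stricter background, leaving out probe sets at or below background in both groups, 54.4% of 57 remaining genes were higher and 15.8% lower, where all genes gave 35.2% and 28.5%.

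**Figure D1:**
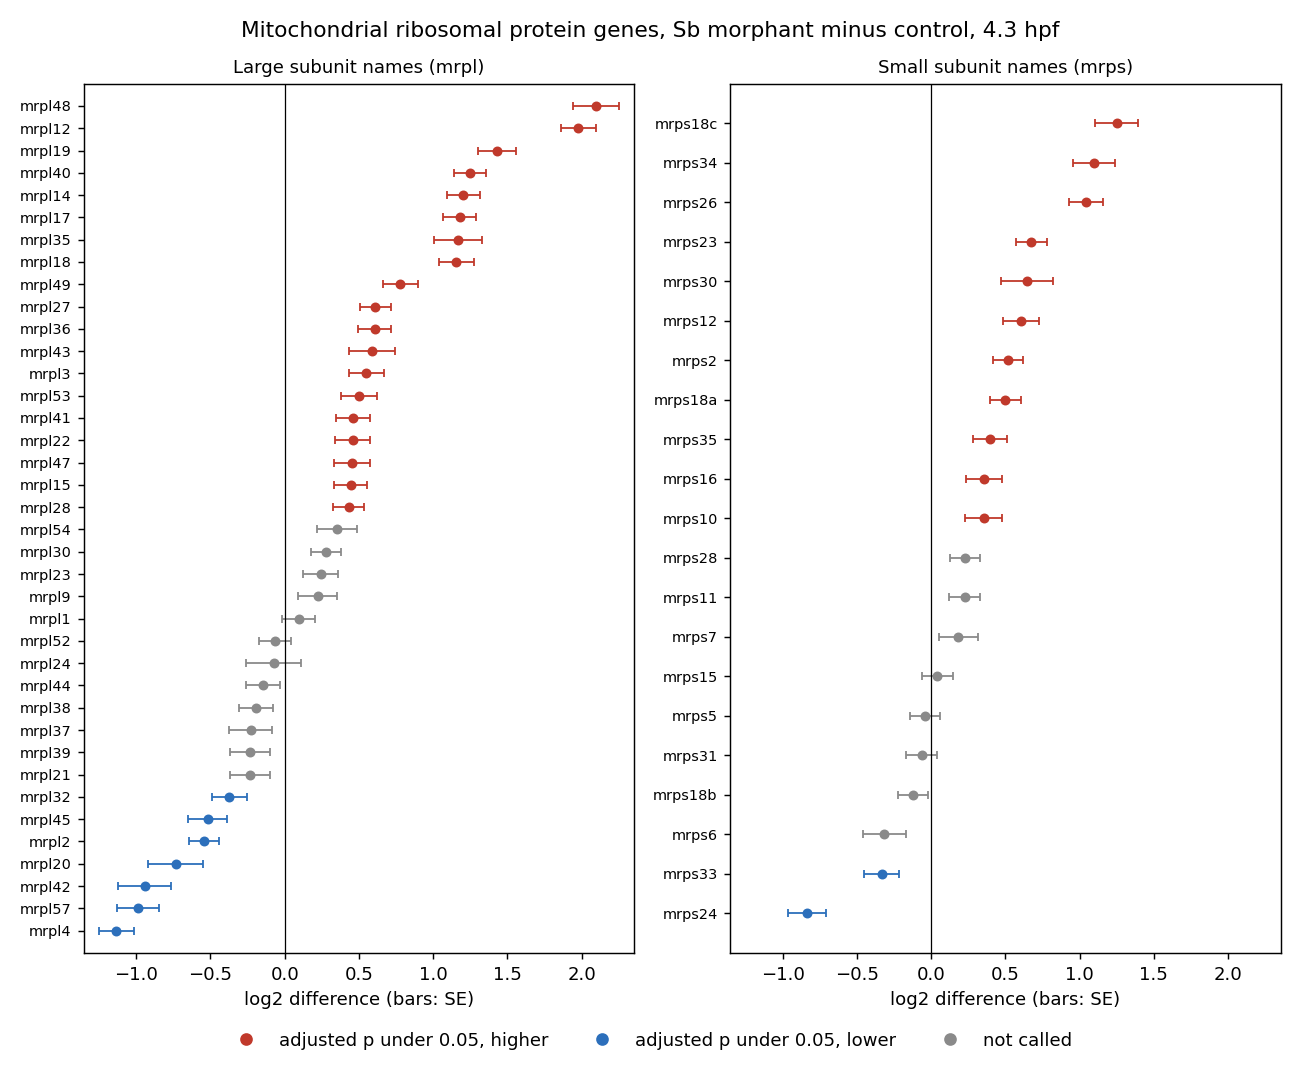
Log2 difference of each of the 59 genes, embryos labelled Sb morphant minus controls at 4.3 hpf (x axis), with genes named for the large subunit on the left and for the small subunit on the right. Points are limma estimates from 3 arrays a group with bars of 1 standard error, and colour marks the call. In both panels more genes lie right of 0 than left, from 2.10 for mrpl48 down to -1.14 for mrpl4.

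Genes of both subunits rose in similar shares (50% of mrpl and 52.4% of mrps genes), while 18.4% of mrpl and 9.52% of mrps genes fell. Over all genes 26% rose and 21.5% fell. Among the 38 mrpl genes, 19 rose and 7 fell, with a median of 0.39. The 21 mrps genes gave 11 rises and 2 falls, with a median of 0.35. The products of mrps18a and mrps30 sit in the large subunit in mammalian structures despite their names. Counted there, 21 genes of the large subunit rose and 7 fell (median 0.44), and 9 genes of the small subunit rose and 2 fell (median 0.23). No test was made of the difference between the subunits.

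The mean over the genes of a subunit moved together from array to array. Relative to each gene's mean over the experiment, the mrpl genes averaged 0.12, 0.22 and 0.14 in embryos labelled morphant and -0.22, -0.12 and -0.14 in controls. The mrps genes averaged 0.12, 0.20 and 0.13 in embryos labelled morphant and -0.18, -0.13 and -0.14 in controls. All genes averaged between -0.03 and 0.04 on the arrays of this experiment. The 2 group means must lie on opposite sides of 0, because deviations are taken from the mean over both groups. Single arrays need not, and none crossed 0 for either subunit. Cytosolic ribosomal protein genes, which encode the ribosome that translates nuclear messages, lay the other way, at -0.49, -0.51 and -0.56 in embryos labelled morphant and 0.42, 0.62 and 0.51 in controls. Of these 72 genes limma called 68 lower and 0 higher (70 had an unadjusted p below 0.05), with a median of -0.84. Over all genes 21.5% were called lower and 26% higher in this comparison, with a median of -0.02. In wildtype embryos 29 of the 72 were higher and 1 lower at 4 hpf than at 2.5 hpf, where 8.86% of all genes were called higher and 11.8% were called lower.

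**Figure D2:**
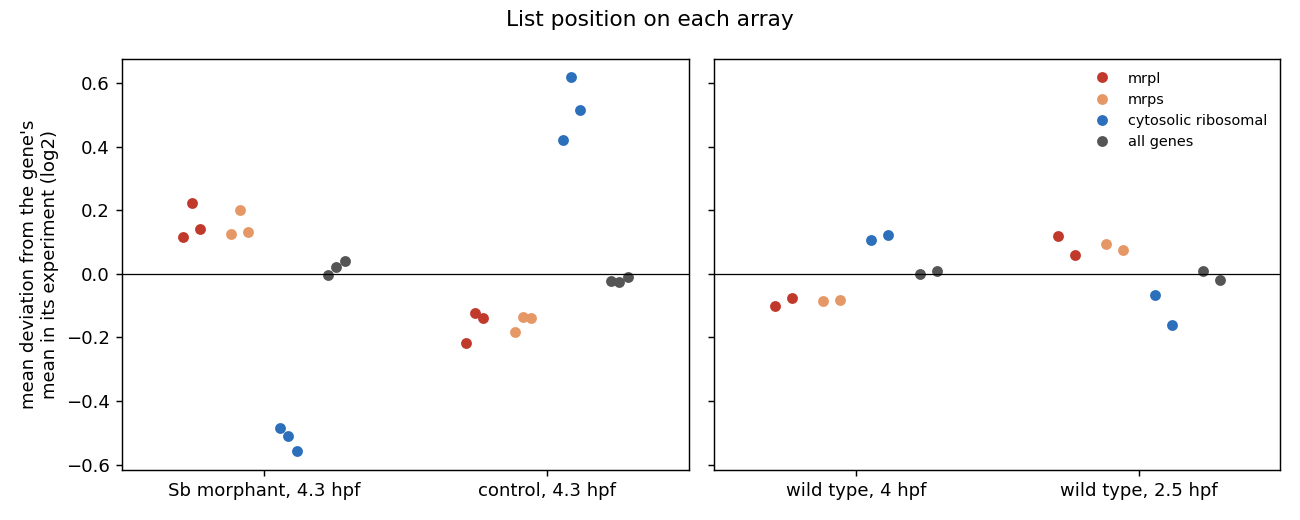
Mean deviation (log2) of each gene list from its genes' means over the experiment, 1 point per array, for the first experiment (left) and the second (right). Red and orange points are mrpl and mrps genes, blue points the 72 cytosolic ribosomal protein genes and grey points all 8793 genes. The mrpl and mrps points lie close together on every array, between 0.12 and 0.22 in embryos labelled Sb morphant.

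The large subunit held the largest rises. Mrpl48 and mrpl40 encode proteins of the central protuberance, the crest of the large subunit that faces the small one. Mrpl48 read 8.16, 8.37 and 7.96 in embryos labelled morphant and 6.17, 5.75 and 6.27 in controls. Every value in embryos labelled morphant lay above every control, with means of 8.16 ± 0.20 and 6.07 ± 0.27 (SD, n = 3 each). Groups did not overlap for 57.1% of all genes either. Mrpl48 was 4.28-fold higher, a log2 difference of 2.10 (SE 0.16, adjusted p = 2.35e-06). Mrpl40 read 6.64, 6.70 and 6.69 in embryos labelled morphant and 5.43, 5.55 and 5.29 in controls. Its groups were narrow and apart, and it was 2.38-fold higher (SE 0.11 on the log2 scale, adjusted p = 6.33e-06), although its control mean of 5.43 was near the background of 5.13. Mrpl18, the counterpart of the bacterial protein that binds 5S RNA in the same crest, read 8.52, 8.75 and 8.41 in embryos labelled morphant and 7.36, 7.48 and 7.37 in controls. It was 2.23-fold higher (adjusted p = 1.97e-05). Mrpl38, another protein of the central protuberance, did not follow them. It read 7.75, 7.83 and 8.04 in embryos labelled morphant and 7.99, 8.15 and 8.06 in controls (log2 difference -0.19, adjusted p = 0.224).

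Mrpl12 encodes the protein of the flexible stalk that recruits translation factors to the ribosome. It read 9.00, 8.93 and 8.88 in embryos labelled morphant and 7.14, 6.79 and 6.95 in controls. The groups were far apart relative to their spread, and mrpl12 was 3.94-fold higher (log2 difference 1.98, SE 0.12, adjusted p = 5.88e-07). Mrpl1, whose bacterial counterpart forms the mobile stalk on the other side, read 5.52, 5.46 and 5.28 in embryos labelled morphant and 5.25, 5.31 and 5.42 in controls. Those groups overlapped and mrpl1 did not pass (adjusted p = 0.571). Its means of 5.42 and 5.33 were near the backgrounds of 5.10 and 5.13.

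Mrpl19 and mrpl14 encode proteins of the face that meets the small subunit. Mrpl19 read 8.83, 9.03 and 8.74 in embryos labelled morphant and 7.61, 7.25 and 7.45 in controls, 2.69-fold higher (adjusted p = 8.09e-06). A second mrpl19 probe set gave a log2 difference of 1.51, close to the 1.43 of the first. Mrpl14 read 8.13, 8.39 and 8.15 in embryos labelled morphant and 7.00, 6.94 and 7.11 in controls, 2.30-fold higher (adjusted p = 1.12e-05). For both genes all 3 values of the embryos labelled morphant lay above all controls. Over all genes, 57.1% had groups that did not overlap.

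Several members encode proteins of the exit tunnel, through which the new protein leaves. Mrpl17 read 7.66, 7.73 and 7.62 in embryos labelled morphant and 6.57, 6.33 and 6.57 in controls, 2.26-fold higher (SE 0.11 on the log2 scale, adjusted p = 1.13e-05). Mrpl22 rose by 0.46 and mrpl47 by 0.45 (adjusted p = 0.00824 and 0.011). Mrpl47 lost its call without morphant replicate 2 (adjusted p = 0.0536). Mrpl23 and mrpl24, counterparts of bacterial proteins at the tunnel exit, did not pass (log2 differences 0.24 and -0.07, adjusted p = 0.136 and 0.805). Mrpl4 had the largest fall of all 59 genes. It read 5.25, 5.31 and 5.27 in embryos labelled morphant and 6.30, 6.62 and 6.31 in controls, with means of 5.27 ± 0.03 and 6.41 ± 0.18 (SD, n = 3 each). Its groups did not overlap, which also held for 57.1% of all genes. Mrpl4 was 2.20-fold lower (log2 difference -1.14, SE 0.12, adjusted p = 2.23e-05), although its level in embryos labelled morphant was near the background of 5.10. Mrpl45, which in mammals anchors the ribosome to the inner membrane, read 5.54, 5.74 and 5.95 in embryos labelled morphant and 6.18, 6.44 and 6.16 in controls. It fell by 0.52 (adjusted p = 0.00874), a call lost under scaling to the spiked-in controls (highest adjusted p 0.169).

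Near the peptidyl transferase centre, where peptide bonds form, mrpl3 and mrpl2 moved in opposite directions. Mrpl3 read 8.68, 8.69 and 8.53 in embryos labelled morphant and 8.13, 7.89 and 8.22 in controls (log2 difference 0.55, adjusted p = 0.00319). Mrpl2 read 7.42, 7.29 and 7.41 in embryos labelled morphant and 7.84, 7.90 and 8.01 in controls (log2 difference -0.54, adjusted p = 0.00153). Neither pair of groups overlapped, which also held for 57.1% of all genes. The SDs in embryos labelled morphant and in controls were 0.09 and 0.17 for mrpl3 and 0.07 and 0.08 for mrpl2. The call of mrpl2 was lost when arrays were scaled to the hybridisation controls alone (adjusted p = 0.106).

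Further falls came from genes with varied roles. Mrpl57, a protein of the mitochondrial large subunit with no bacterial counterpart, read 6.12, 6.27 and 6.38 in embryos labelled morphant and 6.97, 7.47 and 7.28 in controls, 1.98-fold lower (adjusted p = 0.000215). Mrpl42, also without a bacterial counterpart, read 5.85, 5.81 and 5.72 in embryos labelled morphant and 6.35, 7.17 and 6.68 in controls. Control replicate 2 was its highest value, and the gene was 1.92-fold lower (adjusted p = 0.00146). Mrpl20, whose bacterial counterpart acts early in assembly, fell by 0.74 (adjusted p = 0.00767), with values of 5.73, 5.88 and 5.71 in embryos labelled morphant and 6.12, 6.96 and 6.45 in controls. Mrpl32, a zinc-binding protein that in yeast is processed by the m-AAA protease, fell by 0.37 (adjusted p = 0.029), a call lost in 7 of 17 alternative settings.

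The other mrpl rises came from both classes. Mrpl35, a counterpart of bacterial L35, read 6.91, 7.09 and 6.80 in embryos labelled morphant and 5.95, 5.39 and 5.94 in controls, 2.25-fold higher (adjusted p = 0.000162). Mrpl49, without a bacterial counterpart, rose by 0.78 (adjusted p = 0.00027). Mrpl53 read 6.03, 6.10 and 5.91 in embryos labelled morphant and 5.50, 5.70 and 5.35 in controls, a rise of 0.50 (adjusted p = 0.00643). Mrpl15, mrpl27, mrpl28, mrpl36 and mrpl41 rose by 0.43 to 0.61. The fitted difference of mrpl43 was 0.59 (adjusted p = 0.00966), but both of its groups lay below background, so no fold is given.

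By origin, 13 of the 23 mrpl genes with a bacterial counterpart rose and 4 fell (56.5% and 17.4%, median 0.44). Of the 15 mitochondria-specific mrpl genes, 6 rose and 3 fell (40% and 20%, median -0.06). The small subunit showed the other order, with 5 rises and 1 fall among 12 genes with a counterpart (median 0.23) and 6 rises and 1 fall among 9 without (median 0.50). Over both subunits, 18 of 35 genes with a counterpart rose and 5 fell, and 12 of 24 without rose and 4 fell. These shares were close to each other, and no test between the classes was made. All genes gave 26% rises and 21.5% falls, with a median of -0.02, near that of the mitochondria-specific mrpl genes. Mrps18a and mrps18b, relatives of mrps18c, are counted with the mitochondria-specific genes here. Mrps18a and mrps30, both among the 6 small-subunit rises without a counterpart, are counted there by name only.

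In the small subunit, mrps18c had the largest rise. Mrps18c, a counterpart of bacterial S18, read 7.91, 8.43 and 8.05 in embryos labelled morphant and 6.76, 7.05 and 6.84 in controls, 2.38-fold higher (adjusted p = 5.72e-05). Mrps34, which in the mouse is needed to keep the 12S ribosomal RNA stable, read 8.40, 7.91 and 8.22 in embryos labelled morphant and 7.13, 6.93 and 7.17 in controls. Its groups did not overlap, like those of 57.1% of all genes, and it was 2.14-fold higher (adjusted p = 9.31e-05). Mrps26 read 7.94, 7.99 and 7.78 in embryos labelled morphant and 6.94, 6.93 and 6.71 in controls, 2.06-fold higher (adjusted p = 3.26e-05). The relatives of mrps18c were mixed. Mrps18a rose by 0.50 (adjusted p = 0.00299), and mrps18b read 7.14, 7.13 and 7.08 in embryos labelled morphant and 7.16, 7.24 and 7.33 in controls (adjusted p = 0.402).

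Mrps12 encodes the protein at the decoding centre, where codon and anticodon are matched. It read 7.27, 7.42 and 7.27 in embryos labelled morphant and 6.50, 6.88 and 6.77 in controls, 1.52-fold higher (adjusted p = 0.00227). Mrps24, the counterpart of bacterial S3 at the entry of the messenger channel, fell. It read 6.67, 6.84 and 6.92 in embryos labelled morphant and 7.43, 7.80 and 7.72 in controls, 1.79-fold lower (log2 difference -0.84, SE 0.13, adjusted p = 0.000339). No value of one group reached the other, which also held for 57.1% of all genes. Mrps23, mrps30 and mrps2 rose by 0.68, 0.64 and 0.52, and the call of mrps30 was lost without morphant replicate 1 (adjusted p = 0.0518).

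Several small-subunit calls were weak. Mrps35, mrps16 and mrps10 rose by 0.40, 0.36 and 0.35 (adjusted p = 0.0174, 0.0339 and 0.0418), and their calls were lost in 2, 4 and 6 of 17 alternative settings. Mrps16 was at background in controls and reached only that level in embryos labelled morphant, so it has no fold. Mrps33 read 4.81, 5.02 and 4.76 in embryos labelled morphant and 5.07, 5.34 and 5.17 in controls (log2 difference -0.33, adjusted p = 0.0442). It lay below background in embryos labelled morphant and was at least 1.07-fold lower, a call lost in 9 of 17 alternative settings. The smallest differences were those of mrps15 (0.04), mrps5 (-0.04) and mrpl52 (-0.06, below background in both groups). With the replicate number as a block, 2 further genes passed, mrpl54 (log2 difference 0.35, adjusted p = 0.0284) and mrps6 (-0.31, adjusted p = 0.0296). Over the 59 genes, 44 had groups that did not overlap, against 57.1% of all genes.

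**Figure D3:**
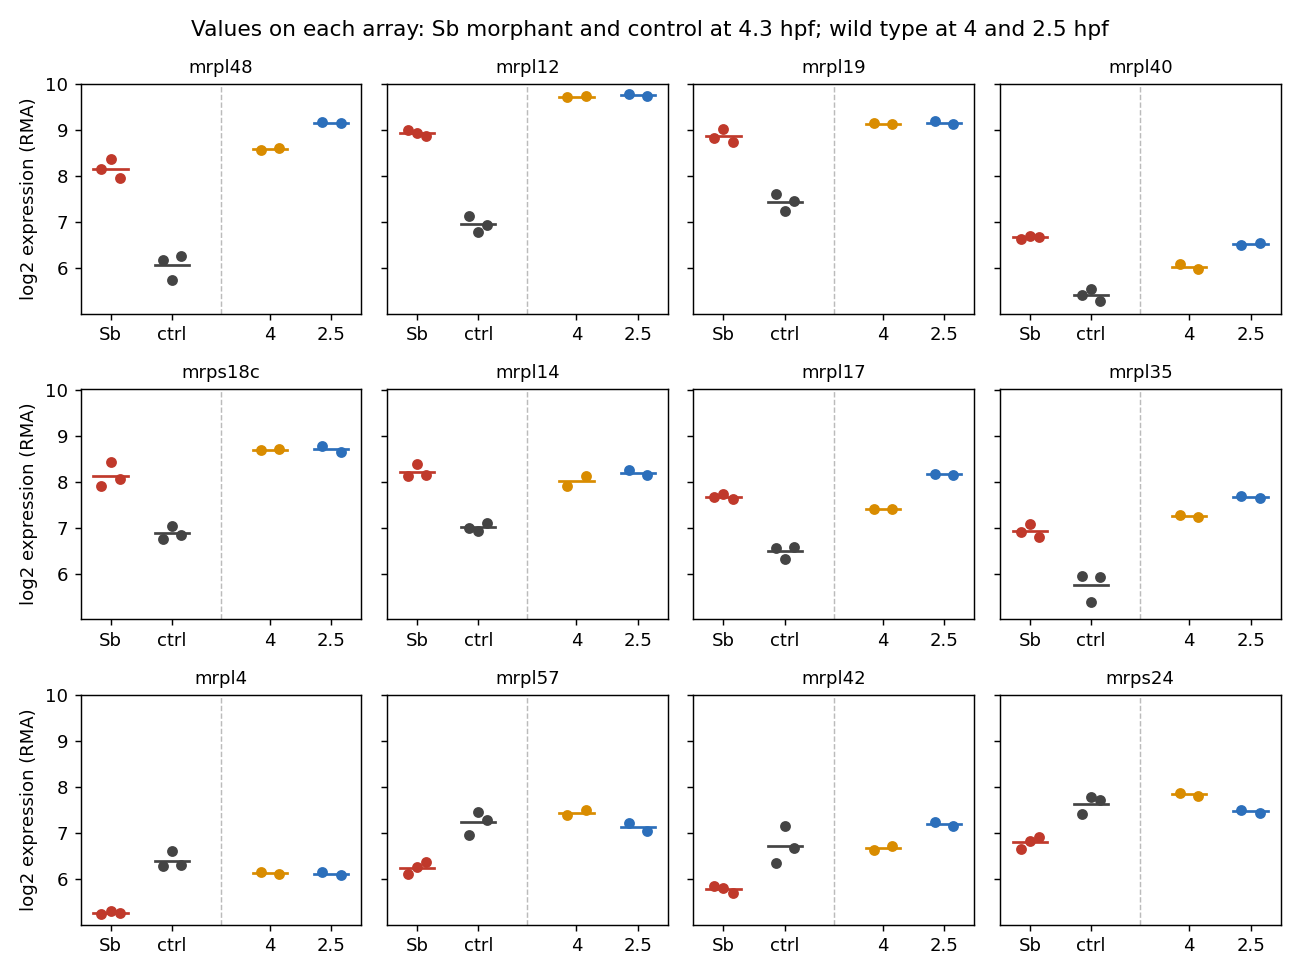
Log2 expression of 12 genes on every array (y axis): the 8 largest rises and 4 largest falls in embryos labelled Sb morphant (Sb) against controls (ctrl) at 4.3 hpf, with wildtype embryos at 4 and 2.5 hpf to the right of the dashed line. Points are arrays and bars group means, and values left and right of the dashed line appear to have been normalized apart. In each of the 12 panels the Sb and ctrl points do not overlap. The genes were picked by this same difference, so that is no separate result, and 57.1% of all genes did not overlap either.

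Genes of the same machinery showed how far the pattern reached beyond the chosen symbols. Of 4 measured mitochondrial ribosomal proteins with other names, 2 rose and 1 fell (50% and 25%), beside 26% and 21.5% of all genes. Chchd1 and ptcd3 rose by 1.00 and 0.66 (adjusted p = 0.00017 and 0.00273), and dap3, a GTP-binding protein of the small subunit, fell by 0.43 (adjusted p = 0.00562). Of 12 measured assembly factors, 9 rose and 1 fell (75% and 8.33%), with a median of 1.05. Rbfa, which helps mature the small subunit RNA, read 6.90, 6.85 and 6.82 in embryos labelled morphant and 4.87, 4.40 and 4.76 in controls. Its controls were below background, so it was at least 3.30-fold higher (adjusted p = 6.38e-07). Trub2, a pseudouridine synthase of the mitochondrion, read 8.73, 8.48 and 8.55 in embryos labelled morphant and 6.71, 6.96 and 6.87 in controls (log2 difference 1.74, adjusted p = 1.18e-06). Ybey, an RNA-processing endonuclease, fell by 0.39 (adjusted p = 0.0248).

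The other mitochondrial lists were more mixed. Among 9 mitochondrial translation factors, 2 rose and 1 fell (22.2% and 11.1%, below the 26% and 21.5% of all genes). Mtfmt, the formyltransferase that marks the initiator tRNA, rose by 0.84 and the elongation factor gene tsfm by 0.73 (adjusted p = 0.00141 and 0.000714). The fitted difference of the initiation factor gene mtif3 was -0.68 (adjusted p = 0.00176), below background in both groups. Among 9 genes that charge mitochondrial tRNAs (7 aminoacyl-tRNA synthetases and the amidotransferase subunits qrsl1 and gatb), 4 rose and 2 fell (44.4% and 22.2%). Qrsl1 was among the rises. Pars2 rose by 1.91 (adjusted p = 1.37e-05) and cars2 at least 1.30-fold (adjusted p = 6.96e-06), while gars1 and kars1 fell by 1.00 and 0.50 (adjusted p = 5.26e-05 and 0.00495). The genes that fell each make a cytosolic as well as a mitochondrial enzyme in vertebrates, whereas pars2 and cars2 make mitochondrial ones. Whether this bears on the direction of the differences was not tested. Mitochondrial DNA and RNA maintenance gave 4 rises and 3 falls of 13 (30.8% and 23.1%), near the 26% and 21.5% of all genes, with mtpap (0.96) and supv3l1 (0.66) highest, polg2 at least 1.20-fold lower and tfam at -0.53. Protein import gave 8 rises and 5 falls of 26 (30.8% and 19.2%), also near the shares of all genes, with timm21 at least 1.40-fold higher, hspe1 at 1.23, tomm5 at -1.10 and grpel2 at -1.03.

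Wildtype embryos at 4 hpf were compared with embryos at 2.5 hpf to follow the same genes across the mid-blastula transition. Here more of them were lower than higher. Of the 59 genes, 17 fell, 3 rose and 39 did not pass. That is 28.8% lower and 5.08% higher, where 11.8% of all genes were called lower and 8.86% were called higher. The median log2 difference was -0.18, and that of all genes was 0.03. The shifts were small, and none reached 2-fold, a size at which 0.364% of all genes were called lower and 0.637% were called higher. The stages did not overlap for 46 of the 59 genes, against 64.9% of all genes. Scaling moved the split between the directions, for the 59 genes and for all genes alike. With spiked-in control scaling 20 of the 59 were lower and 1 higher, beside 12.9% and 4.91% of all genes. Median centring gave 26 and 1, beside 17.7% and 4.55%, and the hybridisation controls alone gave 23 and 0, beside 15.3% and 2.33%. Without wildtype 2.5 hpf replicate 2, 12 genes were lower and 0 higher, beside 6.30% and 3.54% of all genes.

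Both subunits were lower in like proportion. Of the 38 mrpl genes, 11 fell and 1 rose (median -0.16), and of the 21 mrps genes, 6 fell and 2 rose (median -0.20). That is 28.9% and 2.63% of mrpl genes and 28.6% and 9.52% of mrps genes. Over all genes 11.8% fell and 8.86% rose, the latter near the share of mrps genes. On the arrays, the mrpl genes averaged -0.10 and -0.08 at 4 hpf and 0.12 and 0.06 at 2.5 hpf relative to their means over the experiment. The mrps genes averaged -0.09 and -0.08 at 4 hpf and 0.09 and 0.07 at 2.5 hpf. Without probe sets at background in both groups, 22 of 53 genes were lower (41.5%), against 21.9% of all genes.

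**Figure D4:**
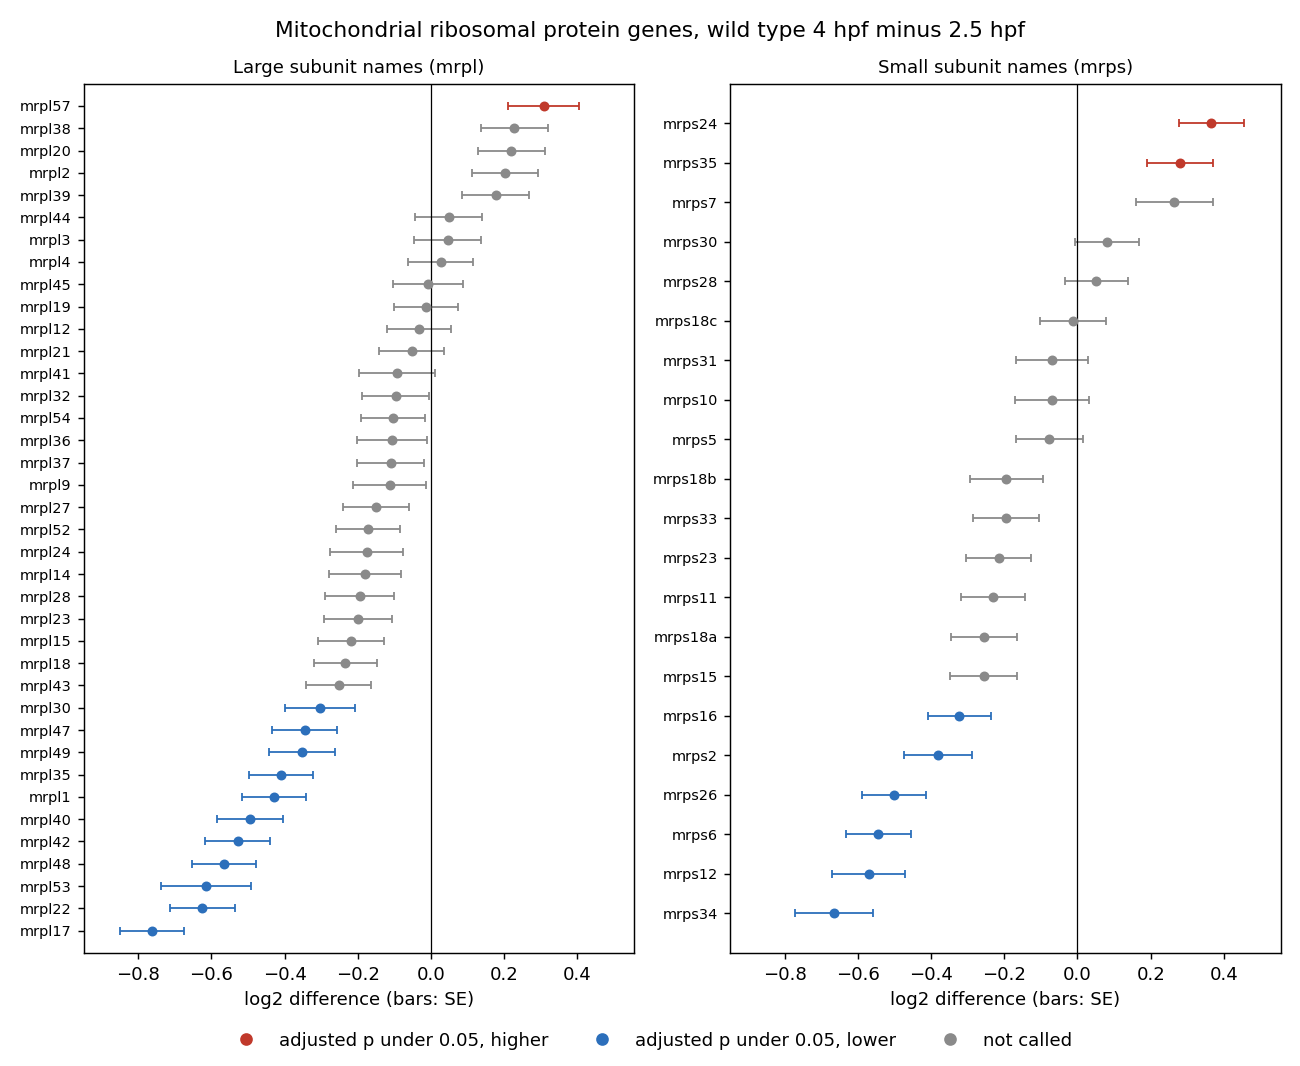
Log2 difference of each of the 59 genes, wildtype embryos at 4 hpf minus 2.5 hpf (x axis), with genes named for the large subunit on the left and for the small subunit on the right. Points are limma estimates from 2 arrays a group with bars of 1 standard error, and colour marks the call. Most points lie left of 0, from -0.76 for mrpl17 up to 0.37 for mrps24.

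Mrpl17, at the exit tunnel, had the largest fall. At 4 hpf it read 7.40 and 7.41 and at 2.5 hpf 8.18 and 8.15, which is 1.70-fold lower (log2 difference -0.76, SE 0.09, adjusted p = 9.82e-05). Mrpl22, also at the tunnel, gave 7.00 and 7.05 at 4 hpf, against 7.69 and 7.61 at 2.5 hpf, and was 1.54-fold lower (adjusted p = 0.000528). In both genes the replicates of a stage lay closer to each other than to the other stage. The central protuberance gene mrpl48 gave 8.57 and 8.62 at 4 hpf, against 9.17 and 9.16 at 2.5 hpf, and was 1.48-fold lower (adjusted p = 0.00093). Mrpl40 gave 6.10 and 5.98 at 4 hpf, against 6.52 and 6.55 at 2.5 hpf. It was at background at 4 hpf and so at least 1.15-fold lower (adjusted p = 0.00293). Mrpl18 of the same crest did not pass (log2 difference -0.23, adjusted p = 0.0792).

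The mobile stalk gene mrpl1 was lower at 4 hpf, at 6.45 and 6.49, against 6.89 and 6.90 at 2.5 hpf (adjusted p = 0.00538). Mrpl53 fell by 0.61, with values of 7.42 and 7.01 at 4 hpf and 7.89 and 7.77 at 2.5 hpf (adjusted p = 0.00504). Its 4 hpf replicates were the furthest apart among the 17 genes that fell. Mrpl42 fell by 0.53, mrpl35 by 0.41, mrpl49 and mrpl47 by 0.35 and mrpl30 by 0.30. Of these, the calls of mrpl49, mrpl47 and mrpl30 were lost in 3, 1 and 5 of 15 alternative settings.

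In the small subunit, mrps34 and mrps12 fell most. Mrps34 gave 7.77 and 7.60 at 4 hpf, against 8.23 and 8.47 at 2.5 hpf, a 1.59-fold fall (SE 0.11 on the log2 scale, adjusted p = 0.00114). The decoding centre gene mrps12 gave 7.87 on both arrays at 4 hpf, against 8.56 and 8.32 at 2.5 hpf, a 1.48-fold fall (adjusted p = 0.00221). Mrps6, the counterpart of bacterial S6, gave 7.58 and 7.62 at 4 hpf, against 8.11 and 8.18 at 2.5 hpf, a 1.46-fold fall (adjusted p = 0.00133). For each of these the stages did not overlap, which also held for 64.9% of all genes. Mrps26 fell by 0.50 and mrps2 by 0.38, the call of mrps2 being lost in 2 of 15 alternative settings. The fitted difference of mrps16 was -0.32 (adjusted p = 0.0235), below background at both stages, a call lost in 4 of 14 alternative settings.

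The 3 rises were small. Mrps24 gave 7.88 and 7.81 at 4 hpf, against 7.52 and 7.44 at 2.5 hpf, a 1.29-fold rise (adjusted p = 0.0142). Mrpl57 gave 7.40 and 7.51 at 4 hpf, against 7.24 and 7.05 at 2.5 hpf, a 1.24-fold rise (adjusted p = 0.0441). The stages did not overlap for either gene, nor for 64.9% of all genes. The calls of both were lost in 3 and 5 of 15 alternative settings, with highest adjusted p-values of 0.174 and 0.310. The fitted difference of mrps35 was 0.28 (adjusted p = 0.0488), below background at both stages and lost in 11 of 14.

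Genes that differed strongly in embryos labelled morphant could be flat between the stages. Mrpl12 gave 9.72 and 9.74 at 4 hpf, against 9.78 and 9.74 at 2.5 hpf (log2 difference -0.03, adjusted p = 0.821). The smallest differences were those of mrpl45, mrps18c and mrpl19, each at -0.01. In all 3 the values of the stages overlapped. For mrpl19 this depended on the probe set: the second one fell by 0.37 (adjusted p = 0.0306). Likewise the chosen mrps7 probe set gave 0.26 (adjusted p = 0.0975) while its other one fell by 0.28 (adjusted p = 0.0433), and 1 of the 3 of mrps5 fell by 0.31 (adjusted p = 0.0497) where the chosen one gave -0.08.

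In the related lists, the assembly factor genes gave 3 falls (25%) and no rise of 12, beside 11.8% lower and 8.86% higher over all genes, with trub2 at -0.80, rbfa at -0.61 and ddx28, an RNA helicase, at -0.44 (adjusted p = 7.15e-05, 0.000565 and 0.00587). Limma called none of the 9 translation factors (2 had an unadjusted p below 0.05) and none of the 4 ribosomal proteins with other names (3 had one). Among the 9 tRNA charging genes 1 rose and 2 fell (11.1% and 22.2%). Fars2 rose by 0.30, and cars2 and pars2 fell by 0.51 and 0.39. Of the 13 genes of the maintenance list 1 passed as lower (7.69%, below the 11.8% of all genes). This was fastkd1, with a fitted difference of -0.46, below background at both stages. Protein import gave 9 falls and 1 rise of 26 (34.6% and 3.85%, beside the 11.8% and 8.86% of all genes), with timm21 at least 1.32-fold lower, hspe1 at -0.79 and tomm20b at 0.73.

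No array is shared between the 2 experiments, so the calls of both could be set side by side. Of the 59 genes, 17 were called in both, against 13.2% of all genes. The combination of higher in embryos labelled morphant and lower at 4 hpf held for 13 of the 59 (22.0%), against 7.35% of all genes. These were mrpl17, mrpl22, mrpl35, mrpl40, mrpl47, mrpl48, mrpl49, mrpl53, mrps2, mrps12, mrps16, mrps26 and mrps34. They make up 43.3% of the 30 genes higher in embryos labelled morphant and 76.5% of the 17 genes lower at 4 hpf. Over all genes the same shares were 28.2% and 62.3%. In the first experiment 2808 of all 8793 genes lay at or below background in both groups, against 2 of the 59. In the second this held for 3260 genes, against 6 of the 59. Shares of this combination without such genes were not computed. The opposite combination held for mrpl57 and mrps24, against 3.61% of all genes. Mrps35 was higher in both, though below background at both stages, and mrpl42 was lower in both. The other mrps35 probe set gave differences of 0.26 and 0.28 but passed in neither comparison (limma, adjusted p = 0.0636 and 0.0946). Among the 13, mrps16 lay below background at both stages and mrpl40 was at background at 4 hpf.

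Across the 59 genes, the 2 differences correlated at -0.44 (Pearson) and -0.43 (Spearman), as a description of genes that share the same arrays. Over all genes these were -0.42 and -0.36, close to the values of the 59 genes. Mrpl12, mrpl19 and mrps18c stood off it, with differences of 1.98, 1.43 and 1.25 in embryos labelled morphant beside -0.03, -0.01 and -0.01 between the stages. Mrpl4 likewise gave -1.14 in embryos labelled morphant and 0.03 between the stages, where it was at background. Mrpl19 stood off by its chosen probe set only, as its other one gave 1.51 in embryos labelled morphant and -0.37 between the stages.

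**Figure D5:**
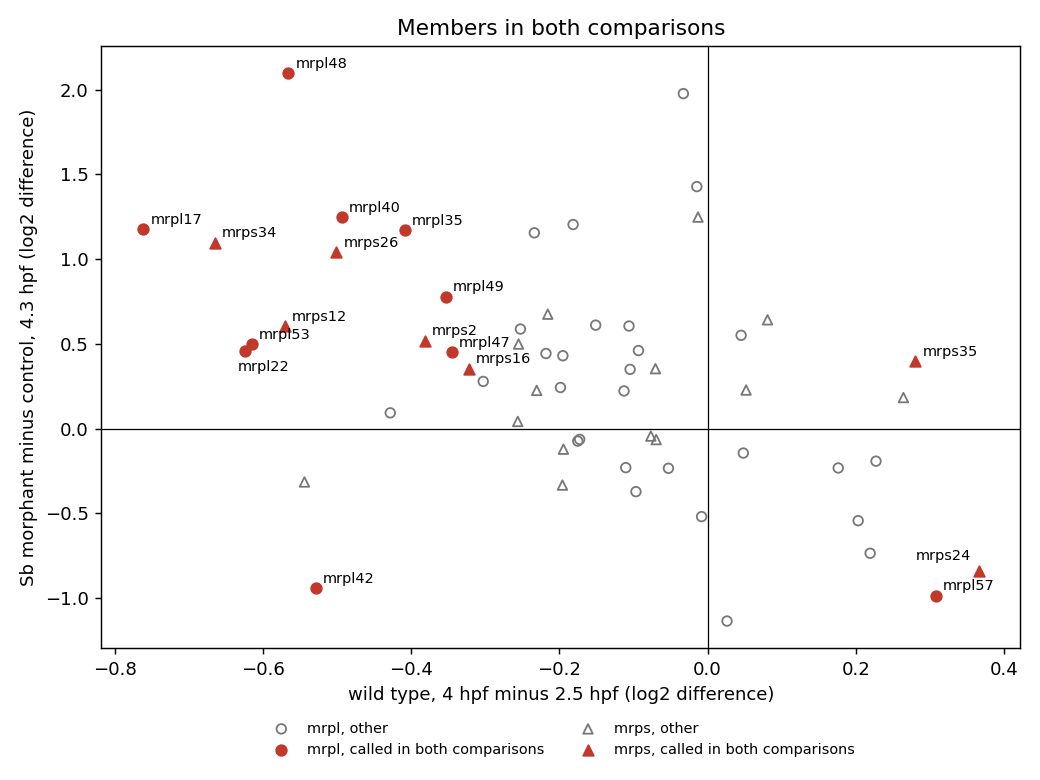
Log2 difference at 4 hpf minus 2.5 hpf (x axis) against embryos labelled Sb morphant minus controls (y axis) for the 59 genes. Circles are mrpl and triangles mrps genes, and filled named points passed in both comparisons. Of the 17 filled points, 13 lie left of 0 and above 0, and mrpl12 is the open circle at 1.98 on the y axis and -0.03 on the x axis.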

How the data were processed

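The deposited table gives log2 expression per probe set, made by the authors with affy and RMA per the submitters' processing notes, with versions not given. Of 15617 probe sets, 115 array controls were left out. The platform annotation named 1 gene for 10795 of the 15502 tested probe sets, several for 135 and none for 4572. RefSeq GRCz12tu served for gene names, for the number of genes of this form and for their chromosomes and order. Where a gene had several probe sets (9 of the 59), the brightest on average across the 10 arrays was used. Probe sets can cross-hybridise, and levels were not compared between them.

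Each experiment was fitted alone with limma 3.58.1 in R 4.3.3 (lmFit and eBayes, group only, two-sided, Benjamini-Hochberg over 15502 probe sets), with no filter on low values, and tested on simulated data. Figures used matplotlib 3.10.9. Background is the highest of 17 tag control means per group (5.10 in embryos labelled morphant, 5.13 in controls, 6.33 at 4 hpf, 6.24 at 2.5 hpf), and "at least" folds are against it. To look for pairing, each array was expressed as its deviation from its group mean over all tested probe sets. These deviations, not the values themselves, correlated between same-numbered replicates of the 2 groups at 0.318, 0.202 and 0.114 in the first experiment. In the second the correlation was -0.024 for both numbers, which must be equal with 2 arrays a group. The members, lists and tests were chosen with earlier results of these data known. Named genes were, per comparison, the 12 largest called rises and falls, genes called in both or with a group at background, and the 3 smallest differences, and for other lists the 2 largest called rises and falls. Other members and ddx28 and qrsl1 were named for their role or for completeness after their values were seen. The number of arrays limits the precision.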

Additional observations from a re-analysis of the deposited data

How the results depend on the processing

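No call of the 59 genes changed direction under any setting, and none was lost with the replicate number as a block. This block added mrpl54 and mrps6 in the first experiment (31 higher, 10 lower) and changed no count in the second (3 higher, 17 lower). With it, 26.9% of all genes were higher and 22.5% lower in the first experiment, and 9.58% and 12.4% in the second. In embryos labelled morphant against controls, the medians of all 59, the mrpl and the mrps genes were 0.60, 0.64 and 0.60 with spiked-in control scaling, 0.60, 0.63 and 0.60 with Bacillus controls alone, 0.61, 0.64 and 0.61 with hybridisation controls alone (both added after seeing the data), and 0.25, 0.29 and 0.25 with joint quantile normalization. Only 1 mrps gene was lower under each of these and with trend and robust settings, beside 11.1% to 21.9% of all genes. Hybridisation controls left 5 genes lower, 4 of them mrpl, beside 11.1% of all genes. The medians of all genes were 0.23 with spiked-in control scaling or Bacillus controls, 0.24 with hybridisation controls and 0.02 with joint quantile normalization. The gap between the 59 genes and all genes stayed at 0.37 except under joint quantile normalization (0.22). With mrps18a and mrps30 moved to the large subunit, also added later, the mrps median was 0.23. Leaving out 1 array gave medians of 0.30 to 0.36 (mrps 0.26 to 0.35), 26 to 30 genes higher, 7 to 9 lower and 1 to 2 mrps genes lower. All genes then gave medians of -0.04 to 0.01, with 23.4% to 25.3% higher and 17.9% to 20.5% lower.

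At 4 hpf against 2.5 hpf, the same medians were -0.23, -0.21 and -0.25 with spiked-in control scaling, -0.26, -0.25 and -0.28 with median centring, -0.13, -0.11 and -0.18 with joint quantile normalization and -0.30, -0.28 and -0.32 with hybridisation controls. The medians of all genes were -0.02, -0.05, 0.002 and -0.09 under the same settings. The gap between the 59 genes and all genes stayed at -0.21 except under joint quantile normalization (-0.13). Rises numbered 1 under spiked-in scaling and median centring (0 mrpl and 1 mrps) and 0 under hybridisation controls (0 mrpl, 0 mrps). All genes gave 4.91%, 4.55% and 2.33% rises under these. Median centring called 26 genes lower, 11 of them mrps, and hybridisation controls 10 mrps genes, beside 17.7% and 15.3% of all genes. Only 1 mrps gene was higher under joint quantile normalization, trend and robust settings, the brightest probe set of the experiment, the mean of all probe sets or Bacillus scaling, and 2 mrpl genes were without probe sets at background. Under those settings 7.40% to 13.7% of all genes were higher. Leaving out 1 array gave 12 to 18 calls, 0 to 3 higher (mrpl 0 to 1, mrps 0 to 2), 12 to 15 lower, and medians of -0.19 to -0.12 (mrpl -0.19 to -0.11, mrps -0.20 to -0.15). Without wildtype 2.5 hpf replicate 2, 12 genes were called. The cause of these shifts was not tested. Fewer arrays enter the fits without 1 array.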
